A study of Homo sapiens with 36 samples.

Results

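The levels of 9 genes that encode transcription factors of the intestinal and wider simple epithelium were followed across the RNA-seq libraries: EHF and ELF3 of the ETS family, GRHL1 and GRHL2 of the Grainyhead family, the homeobox factors CDX1 and CDX2, the nuclear receptor HNF4A, and the zinc finger factors OVOL1 and GATA6. They are 9 of the 62757 genes listed, and 8 of them were among the 12356 genes with enough counts for a test, a mean of at least 64 counts in at least 1 group. CDX1 was not. The genes were chosen by name with results of these data known, and selected on measured values in part, since the level of EHF was far lower in KO than in WT cells, so each difference between KO and WT given here is a description without a test.

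The study asked whether removal of the deacetylase HDAC4 changes how FBXW7-deficient colorectal cancer cells respond to the platinum drug oxaliplatin (OXPT). PolyA RNA was sequenced from HCT-116, an established line of colorectal carcinoma, either WT or FBXW7-/- (KO). FBXW7 is the substrate-binding part of a ubiquitin ligase. Of 36 libraries, 24 have labels that give their group, in 8 groups of 3.

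The 6 KO groups were transfected for 48 h with the control esiRNA (esiCT), with an esiRNA against HDAC4 (esiHDAC4), or with esiCT together with #11, a PROTAC directed against HDAC4, and each of these was untreated or received OXPT at 50 µM for the last 24 h. The label entries give #11 at 1 µM in one place and at 10 µM in another, so its dose is not settled. The paper reports that this PROTAC was not selective within the class IIa HDACs, the class of HDAC4, and degraded them all. The 2 WT groups were untreated or treated with the same OXPT dose and time. Their titles name esiCT and their treatment entries name esiHDAC4, so WT stands for either esiRNA. WT and KO are separate lines bought from 1 supplier, and whether the KO line is a single clone is not given in the sources used here, so the genotype and the line cannot be told apart. The other 12 libraries are WT with label entries that disagree on OXPT, and they entered no comparison. The labels do not say whether replicates were separate cultures, and the study's methods speak of independent experiments for its figures in general without naming the RNA-seq libraries, so every p-value here measures the spread between libraries, which may be technical.

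EHF, ELF3 and the Grainyhead factors bind DNA at genes of epithelial cells and help to keep junction and barrier genes on, and OVOL1 is known for holding back the mesenchymal programme. CDX1 and CDX2 set intestinal identity, and with HNF4A and GATA6 they drive genes of the absorptive enterocyte. In carcinoma cells these factors are often kept in part, and their levels are used to describe how far a tumour has moved from the normal epithelium.

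The libraries held between 10725966 and 20527222 counts on genes, with a median of 14510758. Levels are given as CPM, counts scaled to a common library total, with library sizes scaled by TMM. FBXW7 itself was at 15.4 to 18.1 CPM in untreated KO esiCT and at 16.9 to 23.5 CPM in untreated WT, and a gene level does not check a small edit of the gene. HDAC4 was at 8.80 to 14.9 CPM in untreated KO esiHDAC4 and at 14.0 to 24.9 CPM in untreated KO esiCT (edgeR log2 fold change -0.82 ± 0.24 SE, adjusted p = 0.56 over all genes tested). OXPT lowered HDAC4 in KO esiCT (-1.56 ± 0.25, edgeR adjusted p = 0.00029), to 5.71 to 7.50 CPM. Under OXPT it was at 3.33 to 4.19 CPM with esiHDAC4 (-0.74 ± 0.25 against esiCT, not called). With #11 under OXPT it was at 14.5 to 18.5 CPM (1.36 ± 0.25 against esiCT, edgeR adjusted p = 0.038). All 6 epithelial markers passed the count minimum, EPCAM with 215 to 360 CPM and CDH1 with 43.4 to 113 CPM among them. The 4 colorectal differentiation markers CDH17, LGALS4, GPA33 and CEACAM5 were near 0, with a sum of 0.343 to 1.98 CPM per library, while the intestinal factors CDX2, at 19.5 to 60.3 CPM, and HOXB13, at 13.7 to 50.8 CPM, were measured in every library. The 6 leukocyte markers summed to 0.396 to 2.82 CPM and the 4 endothelial markers to 0.245 to 2.87 CPM. Of 6 fibroblast markers only COL1A1, at 25.1 to 77.6 CPM, passed the minimum. KO esiCT OXPT replicate 3 stood furthest apart, with 22.3% of reads unmapped against a median of 9.29% and a TMM factor of 0.789. Replicate 3 of untreated WT, KO esiHDAC4 OXPT and WT OXPT had 13.8%, 13.4% and 11.9% unmapped and TMM factors of 0.851, 0.909 and 0.907. Whether this bears on levels in replicate 3 was not tested.

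EHF was measured at low levels in every KO library and at much higher levels in every WT library. In untreated KO esiCT cells the 3 libraries held 2.12, 2.23 and 1.85 CPM of EHF. In untreated WT cells they held 42.8, 54.8 and 35.8 CPM. The means were 2.07 ± 0.198 (SD, n = 3) and 44.5 ± 9.65 CPM (SD, n = 3), and the groups did not overlap. With OXPT, KO esiCT held 1.62, 2.31 and 1.19 CPM, and WT held 40.6, 39.9 and 9.72 CPM. WT OXPT replicate 3 was thus the lowest WT library, at 0.241 of the mean of the other WT OXPT libraries, and it was still above all KO libraries. The KO libraries with esiHDAC4 lay at 2.11, 1.57 and 2.22 CPM untreated and at 1.22, 1.63 and 1.40 CPM with OXPT. Those with #11 lay at 2.89, 2.17 and 6.39 CPM untreated and at 2.12, 3.14 and 2.96 CPM with OXPT. KO #11 replicate 3 was the highest KO library.

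The edgeR log2 fold change of EHF, KO esiCT against WT, was -4.42 ± 0.47 (SE) untreated and -4.12 ± 0.47 under OXPT, and the WT mean was 21.5 and 17.6 times the KO mean. All 18 KO libraries, at 1.19 to 6.39 CPM, lay below all 6 WT libraries, at 9.72 to 54.8 CPM. The same order was held by 0.17% of the genes tested, and since this contrast chose the gene, nothing is read from it. EHF was not absent from KO cells: the libraries held 10 to 89 counts of it, with a median of 31.5. In bulk RNA, fewer cells with EHF and less EHF RNA per cell cannot be told apart.

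EHF lies on the forward strand at chr11:34621093-34663288 (GRCh38, GENCODE 44), and no other annotated gene shares its exons. RefSeq (GRCh38.p14) gives promoter windows for 6 of the 9 genes. The 250 bases before both EHF start sites of RefSeq are shown because EHF is the member with the largest difference between the lines, and those before the ELF3 start because ELF3 is the other epithelial ETS factor of the group. Capitals mark the motifs searched on both strands, GGAAG (the ETS core), AACCGGTT (Grainyhead), TTTAT (CDX), GATAA (GATA) and CAAAGTCCA (HNF4). A run of TTTATC would hold both TTTAT and the reverse of GATAA.
EHF window 1, chr11:34624007-34624256, forward strand: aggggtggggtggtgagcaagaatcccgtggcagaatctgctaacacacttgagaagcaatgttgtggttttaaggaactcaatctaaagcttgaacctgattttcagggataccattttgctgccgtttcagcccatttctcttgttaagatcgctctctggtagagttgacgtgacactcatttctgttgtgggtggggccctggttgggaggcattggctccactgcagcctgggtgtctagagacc
EHF window 2, chr11:34632316-34632565, forward strand: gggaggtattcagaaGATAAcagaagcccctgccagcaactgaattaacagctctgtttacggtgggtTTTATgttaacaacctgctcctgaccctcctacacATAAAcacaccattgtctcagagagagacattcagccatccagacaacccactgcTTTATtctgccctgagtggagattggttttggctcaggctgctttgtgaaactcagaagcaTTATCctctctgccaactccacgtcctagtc
ELF3 window, chr1:202010337-202010586, forward strand: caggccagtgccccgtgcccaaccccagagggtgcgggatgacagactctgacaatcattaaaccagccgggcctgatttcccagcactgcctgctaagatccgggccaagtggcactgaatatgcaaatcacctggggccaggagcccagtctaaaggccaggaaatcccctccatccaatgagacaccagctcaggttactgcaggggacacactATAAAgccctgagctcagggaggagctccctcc

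EHF window 1 held 0 matches. EHF window 2 held 5, with TTTAT on either strand from positions -182, -147 and -92 and GATAA on either strand from positions -235 and -31 before the start. The ELF3 window held 1, the reverse of TTTAT from position -33. Of 35116 promoter windows of this length, 32.7% held TTTAT, 20.4% GATAA, 65.1% GGAAG, 0.325% CAAAGTCCA and 0.117% AACCGGTT. A match describes letters only, and no binding was measured here.

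Of 17 annotated genes within 500 kb of EHF, 5 passed the count minimum, EHF included. ABTB2, a BTB-domain gene upstream of EHF, had a KO against WT log2 fold change of -0.59 ± 0.32 untreated and -0.27 ± 0.32 under OXPT. For CAT, which encodes catalase, the values were -0.23 ± 0.34 and -0.58 ± 0.34. The downstream genes APIP, of the methionine salvage pathway, and PDHX, a subunit of pyruvate dehydrogenase, had 0.23 ± 0.20 and 0.16 ± 0.32 untreated and -0.11 ± 0.20 and -0.08 ± 0.32 under OXPT. The ETS gene ELF5, also in this window, held 0 to 22 counts per library. The KO and WT libraries of these 4 neighbours overlapped. ABTB2, for instance, was at 14.5 to 35.2 CPM in KO and 22.2 to 55.4 CPM in WT.

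ELF3, which in gut epithelium is often found together with EHF, was the most abundant of the 9 genes per length. Its median over 24 libraries was 11.3 CPM per kb of exon, against 8.11 for CDX2, 4.03 for GRHL2, 3.07 for OVOL1, 1.87 for GATA6, 0.655 for HNF4A, 0.593 for GRHL1 and 0.337 for EHF. In WT libraries alone the EHF median was 6.09 CPM per kb. Untreated KO esiCT held 43.0, 42.6 and 122 CPM of ELF3, and untreated WT held 98.3, 101 and 265 CPM. Replicate 3 was highest in all 8 groups, and in the 6 groups without #11 it was 1.77 to 2.86 times the mean of the other libraries. With #11 these ratios were 1.33 untreated and 1.03 under OXPT. The KO against WT log2 fold change of ELF3 was -1.16 ± 0.47 untreated and -1.12 ± 0.47 under OXPT, with overlapping libraries. Without KO esiCT replicate 3 the untreated value was -1.86, and without WT replicate 3 it was -0.53. Of the exon bases of ELF3, 9.24% are shared with the antisense gene ELF3-AS1, and the counts used do not separate strands. A long noncoding gene on the same strand also shares 9.24%, which counts by strand would not separate.

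Lower levels in KO esiCT than in WT were also seen for HNF4A and OVOL1. HNF4A, which drives enterocyte and hepatocyte genes, held 5.12, 6.14 and 6.53 CPM in untreated KO esiCT and 8.02, 10.4 and 14.8 CPM in untreated WT. Under OXPT it held 6.08, 6.79 and 5.24 against 7.24, 11.0 and 16.2 CPM, and the groups did not overlap in either state. The log2 fold changes were -0.90 ± 0.29 and -0.92 ± 0.29. OVOL1 held 5.81, 8.06 and 11.6 CPM in untreated KO esiCT and 12.4, 12.6 and 14.2 CPM in untreated WT, a log2 fold change of -0.62 ± 0.33. Under OXPT it held 16.9, 9.18 and 6.90 against 18.2, 17.0 and 34.7 CPM, a log2 fold change of -1.07 ± 0.33.

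GRHL1 lay lower in untreated KO esiCT, at 6.42, 4.84 and 6.13 CPM against 8.74, 15.2 and 7.605 CPM in WT (log2 fold change -0.86 ± 0.49), and overlapped under OXPT (-0.35 ± 0.50), where the value was -1.07 without KO esiCT replicate 1 and 0.01 without WT replicate 1. GRHL2, CDX2 and GATA6 overlapped in both states, with values of 0.05, 0.04 and -0.20 untreated and -0.13, -0.38 and 0.04 under OXPT. Leaving out a single library turned the sign of the untreated GRHL2 and CDX2 values and of all 3 OXPT values. Counted together, all 3 KO esiCT libraries lay below all 3 WT libraries for 4 of the 8 genes untreated and for 3 under OXPT, where 3.52% and 4.11% of all genes tested did so. Since the comparison was used to pick the group, nothing further is read from these counts.

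CDX1 was not detected in 22 of 24 libraries. The other 2, both #11 replicate 3, held 3 counts in all. A count of 0 allows up to 0.141 to 0.357 CPM by the rule of 3 counts per library, which covers counting error only.

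The response to OXPT was tested within each of 4 settings, KO esiCT, KO esiHDAC4, KO #11 and WT. A call needed both an adjusted p below 0.05, with Benjamini-Hochberg adjustment across the 12356 genes, and a change of more than 1.5 times. The edgeR quasi-likelihood test called 0 of the 8 genes in each of the 4 settings, where it called 11.3%, 12% and 9.51% of all genes in the KO settings and 10.7% in WT. At an unadjusted p under 0.05 there were 0, 2, 2 and 3 of the 8, and DESeq2 called 0, 1, 1 and 1. The main fit did not pair libraries by replicate number. With that number as a block, edgeR called ELF3 in KO esiHDAC4 and CDX2 in KO #11 and WT. The median log2 fold change of the 8 genes was 0.11, -0.06, -0.16 and -0.00, and that of all genes was 0.01, 0.02, -0.00 and -0.06.

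CDX2, a homeobox factor of intestinal identity, came nearest to a call. In KO #11 it held 24.4, 23.0 and 19.5 CPM untreated and 36.9, 38.3 and 33.6 CPM with OXPT. In KO esiHDAC4 it held 21.7, 20.4 and 22.1 CPM untreated and 27.8, 31.8 and 40.6 CPM with OXPT. In KO esiCT the values were 22.3, 25.1 and 27.9 CPM against 30.1, 31.7 and 31.2 CPM. All OXPT libraries were above all untreated ones in these 3 settings, an order held by 22.4%, 18.8% and 15.3% of all genes tested. In WT, with 29.4, 19.97 and 24.0 CPM against 31.1, 29.1 and 60.3 CPM, the groups overlapped and OXPT replicate 3 stood apart. By edgeR with Benjamini-Hochberg adjustment the log2 fold changes were 0.70 ± 0.23 in KO #11 (adjusted p = 0.063), 0.64 ± 0.23 in KO esiHDAC4 (0.079), 0.30 ± 0.23 in KO esiCT (0.44) and 0.72 ± 0.23 in WT (0.052). DESeq2 called CDX2 in KO #11, KO esiHDAC4 and WT, with adjusted p = 0.026, 0.041 and 0.030. Over 32 alternatives each, the adjusted p ranged from 0.0070 to 0.31 in KO #11, from 0.023 to 0.42 in KO esiHDAC4 and from 0.021 to 0.49 in WT. With the replicate number as a block, the edgeR values of CDX2 were 0.70 in KO #11 and 0.69 in WT, both calls with an adjusted p of 0.044. In WT the value rested on OXPT replicate 3, without which the log2 fold change was 0.30 (adjusted p = 0.47 by edgeR). WT became a call without OXPT replicate 1 or 2, without untreated WT replicate 1, or without replicate 3 of KO esiCT OXPT or of KO esiHDAC4 OXPT. KO #11 and KO esiHDAC4 became calls without WT OXPT replicate 3, with edgeR adjusted p of 0.019 and 0.023.

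OVOL1 had positive values in all 4 settings, except that its value in KO esiCT was -0.09 without OXPT replicate 1, the highest library of that group at 16.9 CPM. In KO esiHDAC4 it held 6.32, 5.15 and 7.04 CPM untreated and 11.0, 10.5 and 11.4 CPM with OXPT, without overlap, as for 18.8% of all genes in this direction (log2 fold change 0.83 ± 0.34, edgeR adjusted p = 0.12). In WT it went from 12.4, 12.6 and 14.2 CPM to 18.2, 17.0 and 34.7 CPM, an order held by 11.5% of all genes (0.83 ± 0.33, edgeR adjusted p = 0.12). In KO esiCT and KO #11 the libraries overlapped, with log2 fold changes of 0.38 ± 0.33 and 0.51 ± 0.33. With only its 2 groups fitted and the replicate block, a choice made after seeing the data, OVOL1 was called in KO esiHDAC4 with an edgeR adjusted p of 0.041, in a range of 0.041 to 0.33 over 32 alternatives. Of the exon bases of OVOL1, 27.3% are shared with a long noncoding gene on the opposite strand.

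ELF3 with OXPT was measured at 60.2, 88.2 and 160 CPM in KO esiHDAC4, against 41.8, 36.8 and 83.5 CPM untreated. Each OXPT library was above the untreated library of the same replicate number, while the groups overlapped. The log2 fold change was 0.93 ± 0.47 (edgeR adjusted p = 0.22), and with the replicate number as a block it was 0.92 with an adjusted p of 0.014, a call. The adjusted p over 32 alternatives ranged from 0.014 to 0.71. In KO esiCT, KO #11 and WT the log2 fold changes were 0.57 ± 0.47, 0.26 ± 0.47 and 0.53 ± 0.47, with adjusted p of 0.48, 0.78 and 0.53 by edgeR. Without untreated replicate 3, the highest ELF3 library of its group, the value was 1.27 in KO esiCT and 1.17 in WT, with edgeR adjusted p of 0.12 and 0.098.

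The Grainyhead genes GRHL1 and GRHL2 and EHF had negative values in all 4 settings, except that GRHL2 in WT was 0.02 without OXPT replicate 3 and 0.12 without untreated replicate 2, and EHF in KO #11 was 0.10 without untreated replicate 3. GRHL1 in WT went from 8.74, 15.2 and 7.605 CPM to 7.30, 6.16 and 1.68 CPM, without overlap, as for 9.81% of all genes in this direction (log2 fold change -1.06 ± 0.49, edgeR adjusted p = 0.19). In the KO settings it overlapped, at -0.54, -0.58 and -0.61, and the value in KO esiCT was -1.28 without OXPT replicate 1 (edgeR adjusted p = 0.12). GRHL2 in KO #11 went from 41.5, 45.2 and 31.0 CPM to 27.3, 26.2 and 21.4 CPM, without overlap, as for 20.1% of all genes in this direction (-0.65 ± 0.31, edgeR adjusted p = 0.21). In a fit of those 2 groups alone, GRHL2 was called with an adjusted p of 0.028 by edgeR, within a range of 0.0096 to 0.42 over 32 alternatives. EHF had -0.26 ± 0.46, -0.47 ± 0.46 and -0.47 ± 0.44 in KO esiCT, KO esiHDAC4 and KO #11 and -0.56 ± 0.40 in WT, with overlap throughout and edgeR adjusted p of 0.43 or more. EHF passed the count minimum only through the WT groups, with means of 645 and 494 counts. The KO groups had means of 21.3 to 58 counts, so every comparison of EHF among KO groups lies below the minimum and is not read as support. The 95% interval of the EHF value in WT ran from -1.40 to 0.28.

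HNF4A and GATA6, a zinc finger factor of the gut endoderm, moved least. The HNF4A log2 fold changes were 0.03, -0.06, -0.26 and 0.05 in KO esiCT, KO esiHDAC4, KO #11 and WT, and their 95% intervals all lay within -0.85 to 0.64. Those of GATA6 were 0.19, -0.07, -0.07 and -0.05, within -0.63 to 0.75. GATA6 stayed at 4.42 to 9.76 CPM over all 24 libraries.

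**Figure D1:**
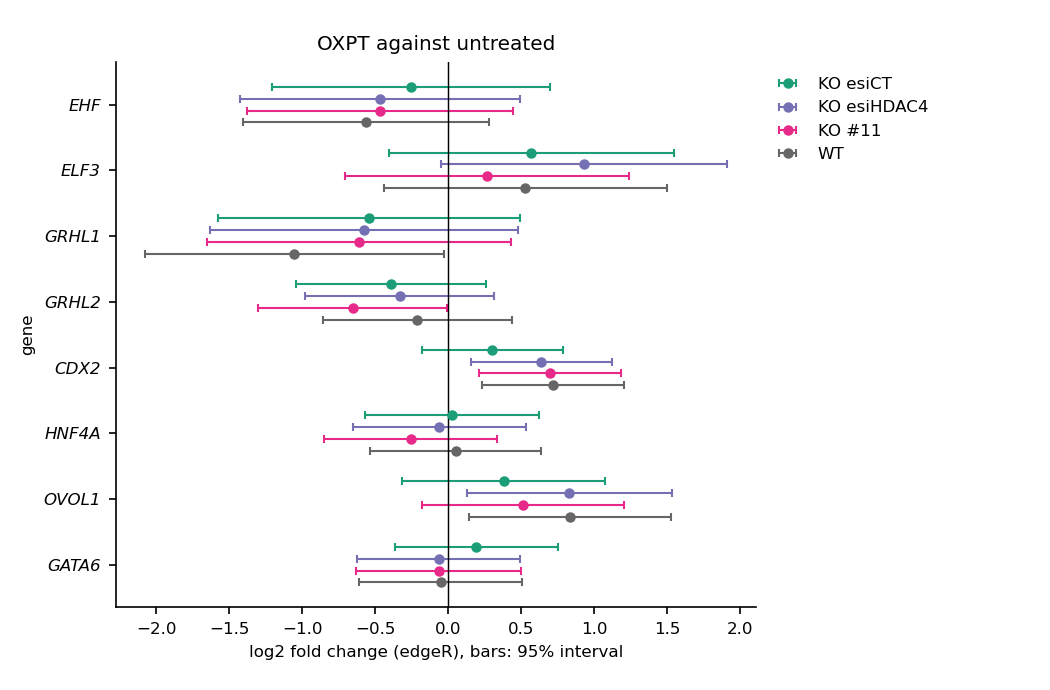
Log2 fold change of OXPT against untreated for each of the 8 genes, with 95% intervals, in KO esiCT, KO esiHDAC4, KO #11 and WT (3 libraries per group). CDX2, ELF3 and OVOL1 lie to the right of 0 and EHF, GRHL1 and GRHL2 to the left of it in all 4 settings, and 0 of these values were called.

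Whether the OXPT response of a gene differed between settings was tested by an interaction term. By edgeR 0 of the 8 genes were called for KO esiCT minus WT, for KO esiHDAC4 minus KO esiCT and for KO #11 minus KO esiCT, as were 0% of all genes, and 0 of the 8 had an unadjusted p under 0.05. Across the 12356 genes an unadjusted edgeR p under 0.05 was reached by 201, 19 and 863, while DESeq2 made 0, 0 and 30 calls. For CDX2 the differences were -0.42 (95% interval -1.10 to 0.27), 0.34 (-0.35 to 1.02) and 0.40 (-0.29 to 1.08). For EHF they were 0.31 (-0.97 to 1.59), -0.21 (-1.57 to 1.14) and -0.21 (-1.53 to 1.11). All of these intervals include 0 and a difference of more than 2 times.

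HDAC4 silencing was compared with esiCT in KO cells. By edgeR 0 of the 8 genes were called in untreated or in OXPT-treated cells, where 0.00809% and 0% of all genes were called, and 0 had an unadjusted p under 0.05 in either. DESeq2 also called 0. The largest untreated values were -0.46 ± 0.34 for OVOL1, -0.45 ± 0.49 for GRHL1 and -0.36 ± 0.47 for ELF3. GRHL1, at 4.26, 3.87 and 4.59 CPM with esiHDAC4 against 6.42, 4.84 and 6.13 CPM with esiCT, and CDX2, at 21.7, 20.4 and 22.1 against 22.3, 25.1 and 27.9 CPM, did not overlap. This order was held by 12.1% of all genes. The ELF3 value turned to 0.33 without KO esiCT replicate 3. Under OXPT the groups overlapped for all 8 genes, where 4.61% of all genes did not overlap. EHF differed by -0.07 ± 0.45 untreated and -0.29 ± 0.47 under OXPT.

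With #11 against esiCT in KO cells, edgeR again called 0 of the 8 genes, where 0.51% of all genes were called untreated and 0.121% under OXPT. At an unadjusted p under 0.05 there were 1 and 0 of the 8, and DESeq2 called 0 and 0. GRHL2, which keeps junction genes on, gave the 1: 41.5, 45.2 and 31.0 CPM with #11 against 23.2, 22.4 and 27.7 CPM with esiCT, without overlap (log2 fold change 0.68 ± 0.31, edgeR adjusted p = 0.33). HNF4A did not overlap either, at 7.92, 8.58 and 7.03 against 5.12, 6.14 and 6.53 CPM (0.40 ± 0.28). Of all genes, 17.2% had all 3 #11 libraries above all 3 esiCT libraries. The EHF value of 0.87 ± 0.44 (edgeR adjusted p = 0.39) rested on replicate 3 of #11, without which it was 0.28. Under OXPT, ELF3 was lower with #11, at 71.1, 67.2 and 71.4 against 79.6, 84.5 and 145 CPM (-0.56 ± 0.47, edgeR adjusted p = 0.72), and CDX2 was higher, at 36.9, 38.3 and 33.6 against 30.1, 31.7 and 31.2 CPM (0.23 ± 0.23). Of all genes, 4.89% and 9.46% held these orders.

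**Figure D2:**
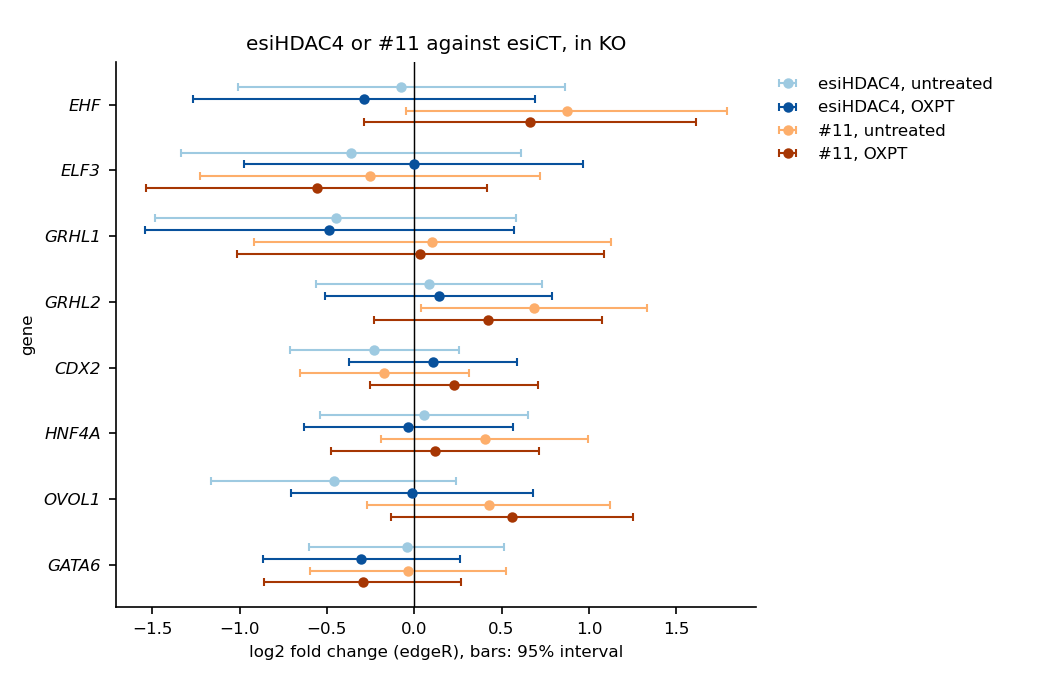
Log2 fold change against esiCT in KO cells for each of the 8 genes, with 95% intervals, for esiHDAC4 and #11, untreated and under OXPT (3 libraries per group). GRHL2 with #11 untreated, at 0.68, is the 1 value whose interval lies clear of 0, and 0 values were called.

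#11 and esiHDAC4 were also compared with each other. Since the PROTAC is not limited to HDAC4, a difference between them cannot be assigned to HDAC4, and its source was not tested. By edgeR 0 of the 8 genes were called, where 1.17% of all genes were called untreated and 0.0971% under OXPT. At an unadjusted p under 0.05 there were 2 untreated, EHF and OVOL1, and 0 under OXPT, and DESeq2 called 0 in both. EHF was below the count minimum in all KO groups, so its values and order in this paragraph are not read as support. All 8 untreated values were positive, with a median of 0.45 against -0.00 for all genes, while those of ELF3, CDX2 and GATA6 lay near 0 and turned negative under some alternatives. For EHF the untreated value of 0.95 ± 0.44 (edgeR adjusted p = 0.32) rested on #11 replicate 3, without which it was 0.34 (edgeR adjusted p = 0.77), and the groups overlapped. OVOL1 held 7.55, 11.7 and 14.9 CPM with #11 against 6.32, 5.15 and 7.04 CPM with esiHDAC4 (0.89 ± 0.34, edgeR adjusted p = 0.21). GRHL2 had 0.60 ± 0.31 (edgeR adjusted p = 0.38). Neither gene overlapped, an order held by 21.4% of all genes. Both were called when only these 2 groups were fitted, with adjusted p of 0.045 and 0.038 by edgeR, and in none of the other alternatives, where adjusted p reached 0.59 and 0.73. Under OXPT the values of EHF and OVOL1 were 0.95 ± 0.46 and 0.57 ± 0.33, with all #11 libraries above all esiHDAC4 libraries for both genes, an order held by 10.4% of all genes.

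Of 19 relatives of these factors listed, 10 were tested, and GRHL3 was the only 1 called with OXPT, in all 3 KO settings. Of all genes, 11.3%, 12% and 9.51% were called there, and nothing particular to the list is read from the count. GRHL3, the Grainyhead factor best known from the epidermal barrier, held 0.751, 0.434 and 1.52 CPM in untreated KO esiCT and 10.2, 8.82 and 5.83 CPM with OXPT. With esiHDAC4 it went from 0.874, 0.728 and 1.11 CPM to 9.91, 7.69 and 6.08 CPM. With #11 it went from 0.370, 0.377 and 1.15 CPM to 6.82, 7.40 and 5.29 CPM. GRHL3 thus rose without overlap in each, an order held by 15.3%, 18.8% and 22.4% of all genes. Its edgeR log2 fold changes were 3.20 ± 0.43 (adjusted p = 4.76e-05), 3.13 ± 0.42 (5.68e-05) and 3.38 ± 0.44 (4.35e-05), and it was called under all 31 alternatives that gave a value in each setting. Among KO groups GRHL3 passed the count minimum only with OXPT, with means of 84 to 126 counts against 9.67 to 15 untreated. WT passed it in both states, with 121 and 288 counts. The KO fold changes of GRHL3 thus rest on low untreated counts, and its calls are not read as support. Without untreated replicate 3 the values in KO esiCT and KO #11 were 3.80 and 4.06. In WT it held 8.82, 9.67 and 6.91 CPM untreated and 15.8, 25.1 and 14.5 CPM with OXPT (1.12 ± 0.37, edgeR adjusted p = 0.057). The difference between the responses, KO esiCT minus WT, was 2.08 ± 0.55 on the log2 scale, which did not pass the threshold over all genes (edgeR adjusted p = 1.00, unadjusted p = 0.0012). Untreated, GRHL3 was lower in KO esiCT than in WT by a log2 fold change of -3.23 ± 0.43, a description as for EHF. Its values with esiHDAC4 against esiCT were -0.00 untreated and -0.07 under OXPT.

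**Figure D3:**
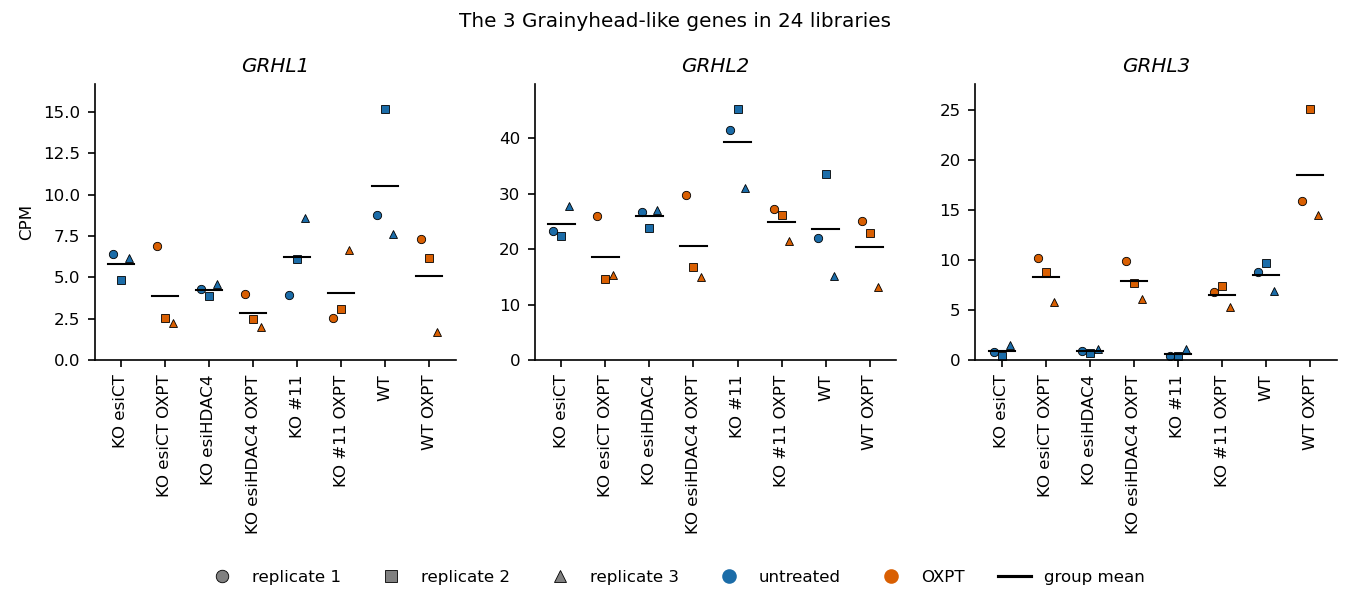
CPM on a linear axis of GRHL1, GRHL2 and GRHL3 in the 24 libraries, with 1 point per library and the bar at the group mean. GRHL3 is at 0.370 to 1.52 CPM in the untreated KO libraries and at 5.29 to 10.2 CPM in the KO libraries with OXPT, while GRHL1 and GRHL2 overlap between most groups.

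Of 20 other gut transcription factors listed, 11 were tested. With OXPT, 1 rose and 0 fell in KO esiCT, 1 and 1 in KO esiHDAC4, 2 and 1 in KO #11 and 2 and 1 in WT, where 11.3%, 12%, 9.51% and 10.7% of all genes were called in either direction, and nothing particular to this list is read from the counts. VDR, the vitamin D receptor, rose in all 4 settings, with log2 fold changes of 1.16 ± 0.20, 1.06 ± 0.20, 0.81 ± 0.20 and 0.80 ± 0.20 (edgeR adjusted p = 0.00078, 0.0017, 0.015 and 0.014). HOXB13, a homeobox factor of the hindgut, rose in KO #11 (1.30 ± 0.25) and WT (0.92 ± 0.25). TCF7L2, the nuclear partner of beta-catenin, fell in KO esiHDAC4 (-0.93 ± 0.26), KLF5 of the crypt in KO #11 (-1.10 ± 0.24) and PPARG in WT (-1.02 ± 0.26). KLF5 also rose with #11 in untreated KO cells, from 34.8, 35.98 and 41.9 CPM to 89.3, 98.01 and 71.0 CPM (1.20 ± 0.24, edgeR adjusted p = 0.039). The list medians with OXPT were -0.05, -0.16, -0.34 and -0.32 in the 4 settings.

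Of 29 epithelial junction and splicing genes 28 were tested. With OXPT, 4 rose in KO esiCT, 3 in KO esiHDAC4, 2 in KO #11 and 2 in WT, and 1 fell in each of the last 2 settings. Of all genes, 11.3%, 12%, 9.51% and 10.7% were called in either direction, and nothing particular to the list is read from these counts. KRT8, a keratin of simple epithelia, rose in all 4, with log2 fold changes of 1.01 ± 0.32, 1.29 ± 0.32, 1.29 ± 0.32 and 1.02 ± 0.32. Its partner KRT18 rose in KO esiCT (1.62 ± 0.39) and KO esiHDAC4 (1.64 ± 0.39), and the polarity gene CRB3 rose in KO esiCT (1.04 ± 0.32). The KRT18 value in KO esiCT was 0.96 and no call without OXPT replicate 3, the library that stood furthest apart in unmapped reads (edgeR adjusted p = 0.096). The splicing factors ESRP2 and ESRP1 went in opposite directions: ESRP2 rose in all 4 settings, by 0.99, 0.91, 0.92 and 1.01, and ESRP1 fell in KO #11 (-1.19 ± 0.33) and WT (-1.37 ± 0.33). The list medians were 0.20, 0.27, 0.14 and 0.19. These calls were not all firm: KRT8 in WT was called under 15 of 32 alternatives, KRT8 and CRB3 in KO esiCT under 19 and 20, and KLF5 with #11 untreated under 19.

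Of 35 enterocyte and brush border genes only 5 were tested, and the other 30 were below the count minimum. With OXPT, 11.3%, 12%, 9.51% and 10.7% of all genes were called in the 4 settings. Few genes of each list in this paragraph were tested, and nothing particular to these lists is read from their counts. CEACAM1, an adhesion molecule, rose with OXPT in all 4 settings, with log2 fold changes of 4.58 ± 0.80, 4.15 ± 0.76, 3.42 ± 0.73 and 3.84 ± 0.76. It passed the count minimum only through the OXPT groups, with group means of 7.33 to 20 counts untreated and 174 to 222 with OXPT, so a change was built into its being tested and its calls are not read as support. Without OXPT replicate 1, the highest CEACAM1 library of those groups, the KO esiCT value was 3.70, that of KO esiHDAC4 3.11 and that of WT 3.16. The carbonic anhydrase gene CA2 rose in KO esiCT, KO #11 and WT (1.29, 1.31 and 1.55), calls that stood under 14, 12 and 27 of 32 alternatives. The peptidase gene DPP4 fell in KO esiCT and KO esiHDAC4 (-1.44 and -1.28), and passed the minimum only through the untreated groups, so the same holds. Of 15 secretory lineage genes 1 was tested and 0 were called by edgeR with OXPT. Of 14 genes of the mesenchymal transition 4 were tested, and SNAI2, a repressor of CDH1, rose in KO esiCT (2.63 ± 0.69) and KO esiHDAC4 (2.69 ± 0.70), from at most 0.956 CPM untreated to 3.33 CPM or more. In KO #11 and WT it had 2.02 ± 0.67 and 1.93 ± 0.66 and was not called (edgeR adjusted p = 0.062 and 0.065). SNAI2 too passed the minimum only through OXPT groups, KO esiCT and WT with means of 76 and 90.3 counts, against 10.7 to 19 in the untreated groups, and its calls are not read as support. COL1A1, the fibroblast marker that was tested, had values of 0.56, 0.64, 0.47 and 0.30 with OXPT and was not called, and its part in these results was not tested. With esiHDAC4, 0 genes of any list were called by edgeR in untreated or OXPT-treated KO cells, where 0.00809% and 0% of all genes were called.

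Across the 24 libraries the 8 genes did not form a single block. Of 28 pairs, 20 had a positive Pearson r of log2 CPM, with a median of 0.22 and a range from -0.65 for GRHL1 with CDX2 to 0.69 for EHF with HNF4A. Within the 18 KO libraries alone, r was -0.61 for GRHL1 with CDX2 and 0.46 for EHF with HNF4A. ELF3 with HNF4A had 0.69 over all libraries and 0.09 within KO. These points share cell lines, treatments and library depth, and are given without a test.

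The genes with the pattern most like that of EHF were ANXA10, with r = 0.92 over 24 libraries, APOBEC3G with 0.90, VASP with 0.86 and HTR7 with 0.86. Another gene in the first 5 is not reported here. All 4 had no overlap between KO and WT, with KO lower, an order held by 0.17% of the genes tested. EHF was picked for this difference, so likeness to EHF favours genes with the same order, and nothing is read from it. ANXA10, which encodes an annexin, was at 0 to 0.933 CPM in KO and 2.97 to 21.4 CPM in WT, and APOBEC3G, a cytidine deaminase, at 0 to 0.481 and 2.34 to 15.1 CPM. VASP, which acts on actin filaments, was at 12.2 to 41.4 and 140 to 524 CPM, and the serotonin receptor gene HTR7 at 3.14 to 12.3 and 17.9 to 46.4 CPM. Most like ELF3 were HSH2D, DUSP4 and RNF223 (r = 0.93, 0.92 and 0.92), most like CDX2 PPP1R9B, TRIM26 and ARFGAP1 (0.94, 0.92 and 0.92), and most like GRHL2 NEK9, FBXL20 and TIA1 (0.92, 0.91 and 0.88). For GRHL1 they were KLF10, OSMR and DCAF16 (0.93, 0.88 and 0.83), for OVOL1 INAVA, BCL7A and YIPF2 (0.90, 0.86 and 0.85), and for HNF4A FUT3, PPARD and VASP (0.85, 0.83 and 0.82). GATA6 had the weakest likeness to any gene, with 0.74 for ARL6IP5, 0.68 for BCL2L11 and 0.67 for TTC39C.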

How the data were processed

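PolyA RNA of HCT-116 cells was sequenced in 36 libraries, and the authors deposited gene counts for each. The submitters' processing notes name Trimmomatic 0.39, STAR 2.7.11a and hg38. Each library's table gives unstranded, forward and reverse counts. The unstranded counts were used, since the reverse column held 1.00 to 1.02 times the forward one. Reads not assigned to a gene were left out of library sizes, with 7.74 to 22.3% of reads unmapped and 10.6 to 12.2% ambiguous in the 24 libraries compared. Gene positions came from GENCODE 44, which matched 62686 of 62757 identifiers without their version.

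Groups were taken from the labels. Genes with a mean of at least 64 counts in at least 1 group were tested with edgeR 4.0.16 (R 4.3.3), by its quasi-likelihood test with TMM scaling and 1 coefficient for each of 8 groups of 3, in 15 comparisons, 2 of which, KO against WT, are given without a test. For a call, p after Benjamini-Hochberg adjustment had to be below 0.05 and the change above 1.5 times. Log2 CPM for correlations used a prior count of 2. The scripts were tested on simulated data. The members and lists were chosen with earlier results of these data known. Named genes were the 9 members, up to 3 called genes with the largest change per list and comparison, tested genes within 500 kb of EHF, and the genes with the highest Pearson r, 5 for EHF and 3 for each other member. ESRP2 and KRT8 are named in every setting where called, since the rule names them in others. A result that the rule would name is not reported here.

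Same-numbered replicates were held to be paired where all pairs' deviations from the group means correlated above 0.1. This held for the OXPT comparisons (r from 0.176 to 0.688), for esiHDAC4 against esiCT (0.279 to 0.788) and for KO against WT (0.113 to 0.654), and not for #11 against esiCT or esiHDAC4. For OXPT in WT, libraries of different numbers reached 0.561, above the lowest same-number value of 0.176. The main fit did not use the pairs, and the replicate block was an alternative only. Alternatives were the reverse-strand counts, DESeq2 1.42.0 and its size factors, no count minimum, the minimum in every group, the groups compared alone, the replicate block, each library left out in turn and, chosen after seeing the data, the groups compared with the block. Intervals on counts of 0 cover counting error only.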

Additional observations from a re-analysis of the deposited data

Results flagged for a closer look

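In the 12 WT libraries whose label entries disagree on OXPT, and which entered no comparison, the lowest EHF level was 8.58 CPM, with a median of 25.6 and a highest value of 75.5 CPM. All 12 lay above all 18 KO libraries, which held 1.15 to 6.13 CPM when all 36 libraries were scaled together. The lowest HNF4A level in these 12 libraries was 7.49 CPM, with a median of 10.4 and a highest value of 17.99 CPM. All 12 lay above the 3 untreated KO esiCT libraries, which reached 6.28 CPM, and 10 lay above all KO libraries. These values were measured in libraries outside the comparisons, and they were not tested. The KO against WT difference chose EHF, and the share of all genes with such orders is not given here, so nothing is read from them. Of the 12 libraries, 8 lay above all KO libraries for ELF3, 5 for OVOL1, 4 for GATA6, 2 for GRHL1, 2 for CDX2 and 0 for GRHL2.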

How the results depend on the processing

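The number of the 8 genes called was 0 in all 13 tested comparisons. With OXPT in KO esiHDAC4 it became 1 with DESeq2, 1 without a count minimum, 1 with the replicate block and 2 with that block in a fit of the 2 groups alone. In KO #11 it became 1 with DESeq2, 1 with the block, 2 when the 2 groups were fitted alone and 2 when they were fitted alone with it. In WT it became 1 with DESeq2 and 1 with the block. For #11 against esiHDAC4 in untreated KO it became 2 when the 2 groups were fitted alone. With single libraries left out it ran from 0 to 1 in those 3 OXPT settings and was 0 in the other 10 comparisons. The block changed no other call of the 8 genes. The EHF log2 fold change of KO against WT ran from -4.56 to -4.24 untreated and from -4.54 to -3.84 under OXPT with single libraries left out. Of 3786 values of single genes under alternatives, 159 changed sign, and the largest main value to do so was 0.52. Of 1199 values of called list genes, 170 lost the call and 0 reversed. Over all genes, the calls for #11 against esiHDAC4 under OXPT were 12 by edgeR, 196 by DESeq2 and 257 with the block, and for #11 against esiCT untreated 63, 409 and 397. The cause was not tested. With 3 libraries per group, EHF at 10 to 89 counts in KO limits its comparisons among KO groups.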
